A study of Drosophila melanogaster with 7 samples.

Results

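The adult midgut of control Drosophila melanogaster is described here from 3 RNA-seq libraries of the 7 in the study, taken by their labelled genotype and not by any measured value. The flies carried esgts, a temperature-sensitive Gal4 system driven by escargot (esg), a gene of intestinal progenitor cells, over w1118, and so held the driver with no RNAi construct. Crosses were kept at 18 °C, and adults were sampled 7 days after a move to 29 °C, the temperature at which the driver is active. Guts were dissected and freed of crop, Malpighian tubules and hindgut, so these libraries mix all cells of the remaining gut, its muscle coat included. The labels give neither the sex of the flies nor the number pooled, and do not say whether the libraries came from separate animals, so the spread between them may be technical. The count columns name the genotype but not the individual sample, and are called control libraries 1, 2 and 3.

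The midgut epithelium is kept up by intestinal stem cells, which express the Notch ligand Delta and divide to give enteroblasts or enteroendocrine precursors. Enteroblasts become enterocytes, the large polyploid cells that secrete digestive enzymes and absorb nutrients through a brush border. Enteroendocrine cells secrete peptide hormones, visceral muscle surrounds the tube, and the gut is divided along its length into regions with their own transcription factors, among them an acid-secreting middle region.

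The 3 libraries held 15885233, 18490676 and 14665728 counts, and 10094, 10601 and 10048 of the 10902 genes in the table had at least 1 count. Genes with at least 1 CPM (counts per 1000000 counts of the library, after TMM scaling) in every control library numbered 7960, and 125 genes had no count in any of them. Levels of different genes are compared only in TPM (transcripts per 1000000 transcripts), which divides the counts by annotated transcript length. TPM is not scaled by TMM, and 73.4% of genes with a mean of at least 5 CPM were highest in library 2 in TPM, against 36.0% in CPM, so orders between libraries are taken from CPM unless TPM is named. Over all 10882 genes with a length the median level was 5.14 TPM, and the top 5% of genes, 544 in number, began at 184.6 TPM. Library 2 stood apart from the other control libraries in some sets of genes. Its cuticle protein and heat-inducible chaperone genes were far above those of libraries 1 and 3, and its long transcripts stood relatively higher. Some values that rest on it are therefore also given without it. With 1 group and 3 libraries no test between groups was possible, and all results are levels with their spread. In such tissue samples, fewer cells of a type and less RNA per cell cannot be told apart.

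The most abundant messages of the control midgut were those of digestive proteases. Jon65Aiv, a serine protease of the Jonah family (FBgn0250815, chromosome 3L, 6039155 to 6040135, plus strand, BDGP6.54), headed the list with 68213, 66397 and 72311 TPM in libraries 1, 2 and 3. Jon65Aiii, its neighbour on the same arm, followed at 50886, 46836 and 47495 TPM. Next came alphaTry, a trypsin on 2R (11344260 to 11345119, minus strand), at 49874, 45201 and 48130 TPM. The libraries overlapped for these genes, so that Jon65Aiii (48406 ± 2173 TPM, SD, n = 3) and alphaTry (47735 ± 2362 TPM) do not differ beyond their spread, whereas Jon65Aiv lay above both in every library.

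Other enzymes filled the next places. The trypsin betaTry reached 38595 ± 2105 TPM (SD, n = 3), the serine protease yip7 30148 ± 1686 TPM, and the carboxypeptidase CG12374, which trims amino acids from the ends of peptides, 28993 ± 2024 TPM. CG12374 was at 27674, 31323 and 27982 TPM. Bace, an aspartic protease, had 25114, 22830 and 25992 TPM, and Jon99Cii had 24256, 22049 and 25962 TPM. Bace was above Jon99Cii within each library, by a small margin in library 3. The values of the 2 genes overlapped between libraries. The first gene that is no protease was Pebp1, a phosphatidylethanolamine-binding protein, at 12691, 10752 and 12800 TPM.

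Of the 30 most abundant genes, 9 belonged to the Jonah proteases, 3 to the trypsins and 2 to the carboxypeptidases. The other serine proteases among them were yip7, CG10472 (10665 ± 772 TPM, SD, n = 3), CG11911 (6866 ± 399 TPM) and CG18180 (6088 ± 985 TPM). The places not held by proteases went to genes of several kinds. The mitochondrial transcripts mt:CoI and mt:CoIII, which encode subunits of cytochrome c oxidase, had 6751 ± 840 and 6672 ± 958 TPM. The metal-binding metallothionein MtnA had 4855 ± 1234 TPM, the ribosomal protein gene RpL41 4094 ± 196 TPM, Peritrophin-15a of the peritrophic matrix 4006 ± 299 TPM, and CG5804, an acyl-CoA-binding protein gene, 3689 ± 467 TPM. CG12057, CG10911, CG5107 and CG14645, at 10861, 7694, 5208 and 4710 TPM, complete the 30 with Pebp1. The plot of these genes by library shows the 3 libraries close together at the first 10 places and further apart for MtnA and CG14645.

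**Figure D1:**
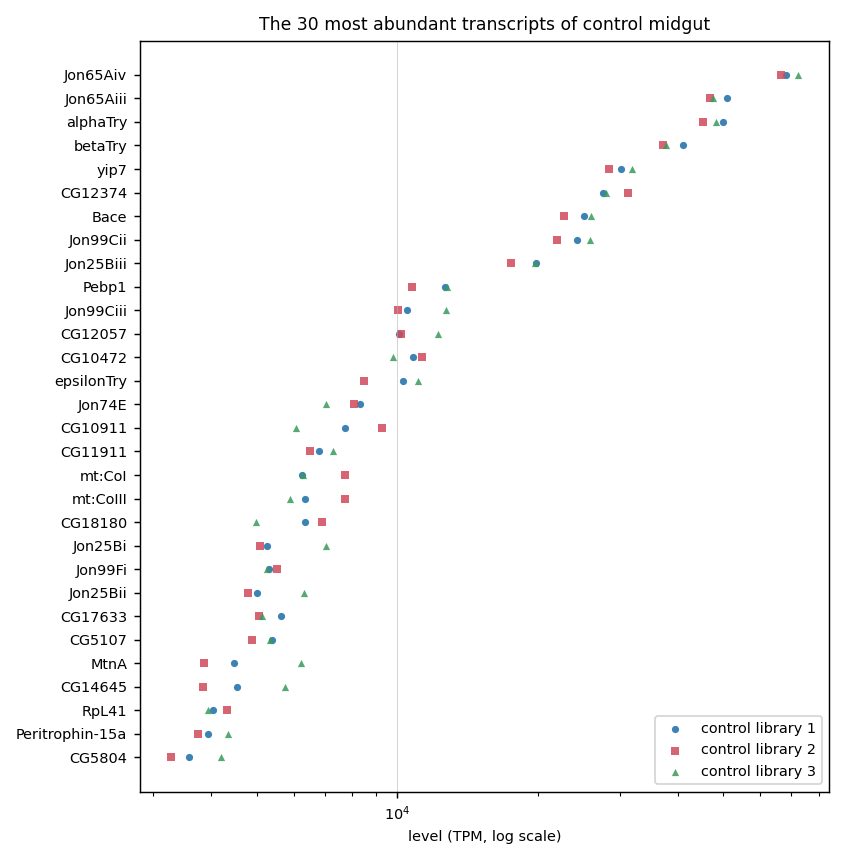
Level of each of the 30 genes with the highest mean TPM (log scale) in control libraries 1 (circles), 2 (squares) and 3 (triangles). Digestive proteases fill the upper rows, from Jon65Aiv at 68974 TPM on average, and the 3 libraries lie close together for most genes.

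A small number of genes held most of the counts. Jon65Aiv alone took 5.62%, 5.28% and 5.98% of the counts of libraries 1, 2 and 3, and the 10 genes with most counts took 30.7%, 28.3% and 31.1% (30.01 ± 1.51%, SD, n = 3). The first 100 genes took 54.2%, 51.5% and 54.8%. It needed 69, 88 and 64 genes to reach 50% of the counts, so library 2 was the least concentrated. Without library 2 the share of the first 10 genes was 30.9%. Per transcript length the concentration was greater, with 34.3 ± 1.20% of TPM in the first 10 genes and 61.5 ± 1.43% in the first 100.

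The abundant genes were short and often clustered on the chromosome. Among the 100 genes with most counts the median transcript was 1063 bases, against 1892 bases over 7942 genes with at least 1 CPM in each library. Among the 100 with the highest TPM it was 825 bases, where ranking by TPM itself favours short transcripts. Of the 100 genes with the highest TPM, 33 lay within 10000 bases of another of the 100. In the next 100 genes by TPM, 10 had such a neighbour among themselves, and in the 100 after those, 6 had. By chromosome, 2R held 25.8 ± 0.364% of the counts, 3L 24.4 ± 0.293%, 3R 19.4 ± 0.236%, 2L 16.9 ± 0.364%, X 10.3 ± 0.211% and chromosome 4 0.594 ± 0.0254% (SD, n = 3).

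The 7 lists of digestive enzymes (Jonah proteases, trypsins, carboxypeptidases, lipases, alpha-mannosidases, amylases with maltases, and lysozymes), together 84 genes, held 32.0%, 29.6% and 32.2% of the counts of libraries 1, 2 and 3. The mean was 31.2 ± 1.44% (SD, n = 3), and 32.1% without library 2. Per transcript length the same genes held 35.7 ± 1.13% of TPM. Within these enzymes the endopeptidases, which cut proteins internally, far exceeded the enzymes for fat and starch.

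Jonah proteases, serine endopeptidases of the larval and adult gut, held 16.7%, 15.3% and 17.4% of the counts. All 16 members of the list were present with at least 1 CPM in each library, and 15 lay in the top 5% of genes, where 5.0% of all genes lie by definition. Their median was 5371 TPM, about that of Jon99Fi (5374 ± 137 TPM, SD, n = 3). The family was far from uniform, since Jon44E had 204 ± 26.1 TPM and Jon66Cii 33.9 ± 8.57 TPM. In CPM, 14 of the 16 members were lowest in library 2, against 41.5% of genes with a mean of at least 5 CPM. In TPM, 10 of the 16 (62.5%) were lowest there, against 10.1% of genes, so the count depends on the scale. None reached a 2-fold range between libraries in CPM, where 2.87% of all tested genes did.

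Of the 8 gene clusters compared, that of the 65A Jonah genes held the most counts. In all, 7 serine protease genes (yip7, Jon65Ai, Jon65Aii, Jon65Aiii, Jon65Aiv, CG10472 and CG10477) lay within 29.7 kb of 3L, from 6033199 to 6062910 (BDGP6.54), and held 13.1 ± 0.674% of the counts (SD, n = 3). Their levels ran from 68974 TPM for Jon65Aiv to 344.7 TPM for CG10477, a 200-fold span among neighbours. Jon65Ai (1560, 1349 and 2043 TPM) and Jon65Aii (1384, 1263 and 1631 TPM) stood far below Jon65Aiii and Jon65Aiv in every library. The 3 Jonah genes at 29922216 to 29926189 on 3R, Jon99Ci, Jon99Cii and Jon99Ciii, held 3.01 ± 0.336% of the counts and spanned 21.7-fold. By contrast, Jon25Bi, Jon25Bii and Jon25Biii (2L, 4949941 to 4955144) differed by only 3.55-fold and held 2.31 ± 0.264%.

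Trypsins, which cut after basic residues, held 8.90%, 7.75% and 8.59% of the counts, and 10 of their 12 members lay in the top 5% of genes. A set of 10 trypsin genes, CG30025 and CG30031 among them, shared 16.9 kb of 2R (11339186 to 11356128). Levels within this cluster, a set picked after the values were seen, spanned 1399-fold. At the top stood alphaTry, betaTry and epsilonTry (9964 ± 1326 TPM, SD, n = 3), followed by deltaTry (2812 ± 255 TPM), thetaTry (2523 ± 250 TPM) and CG30031 (2178 ± 380 TPM). At the bottom were gammaTry (23.1, 49.5 and 34.1 TPM) and CG30025 (55.6, 18.5 and 28.2 TPM). Since gammaTry, deltaTry, CG30025 and CG30031 are near-identical copies, the split of reads among them is uncertain, and the order of gammaTry and CG30025 differed between libraries. Outside the cluster, lambdaTry (904 ± 81.9 TPM) and kappaTry (738 ± 84.8 TPM) were also abundant. Try29F was a minor trypsin at 9.99, 18.0 and 3.30 TPM.

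Carboxypeptidases held 4.85 ± 0.127% of the counts (SD, n = 3), most of it from CG12374. A further member, CG17633, had 5283 ± 320 TPM, CG8560 1487 ± 193 TPM and CG8562 546 ± 9.28 TPM. Of 15 measured members, 7 lay in the top 5% of genes, and the list's median of 33.1 TPM shows how uneven its members were.

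Enzymes for fat and sugars held much smaller shares. Lipases held 0.486 ± 0.0167% of the counts (SD, n = 3), with 3 of 14 members in the top 5% of genes. The leading lipases were CG6295 at 2785, 2868 and 2740 TPM, CG17192 at 1064 ± 145 TPM and magro (mag), a secreted lipase that also acts on cholesterol esters, at 652 ± 143 TPM. CG6283 followed at 84.0 ± 1.80 TPM. Alpha-mannosidases, enzymes that remove mannose from glycans, held 0.371 ± 0.00441% of the counts, led by LManVI (679 ± 19.6 TPM), LManII (281 ± 17.5 TPM) and LManV (276 ± 12.4 TPM).

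Amylases, which break starch, and maltases, which split the resulting sugars, held 0.651%, 0.665% and 0.480% of the counts in libraries 1, 2 and 3. Library 3 was lowest for 10 of the 14 genes (71.4%) in CPM, against 36.7% of genes with a count. Amy-p (1238, 1270 and 963 TPM) and Amy-d (986, 1053 and 740 TPM) are near-identical copies whose reads may be split arbitrarily. Among the 8 Mal-A genes, neighbours within 24.3 kb of 2R, Mal-A1 had 904 ± 214 TPM, Mal-A6 319 ± 74.5 TPM and Mal-A5 1.19 ± 0.308 TPM (SD, n = 3), a 759-fold span from Mal-A1 to Mal-A5. Mal-A7 was the most uneven of them, at 76.0, 35.6 and 17.8 CPM.

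Lysozymes, which cleave bacterial cell walls, held 0.0459 ± 0.00622% of the counts. LysD had 379 ± 52.6 TPM, LysX 251 ± 56.2 TPM, LysB 173 ± 34.2 TPM and LysE 126 ± 13.1 TPM (SD, n = 3), and LysP 0.367 ± 0.0317 TPM. The Lys genes resemble each other closely, so reads may be split among them.

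Genes of the peritrophic matrix, the chitin and mucin layer between food and epithelium, held 0.340 ± 0.0239% of the counts. Peritrophin-15a far exceeded the others, at 3934, 3749 and 4334 TPM, followed by Peritrophin-15b (529 ± 29.5 TPM, SD, n = 3), Mur29B (426 ± 131 TPM) and Muc68D (155 ± 28.5 TPM). The median of the 19 measured members was 3.93 TPM, and the lowest, Mur89F, had 0.00678 TPM. Muc11A was uneven, with 85.9, 152 and 32.9 CPM.

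**Figure D2:**
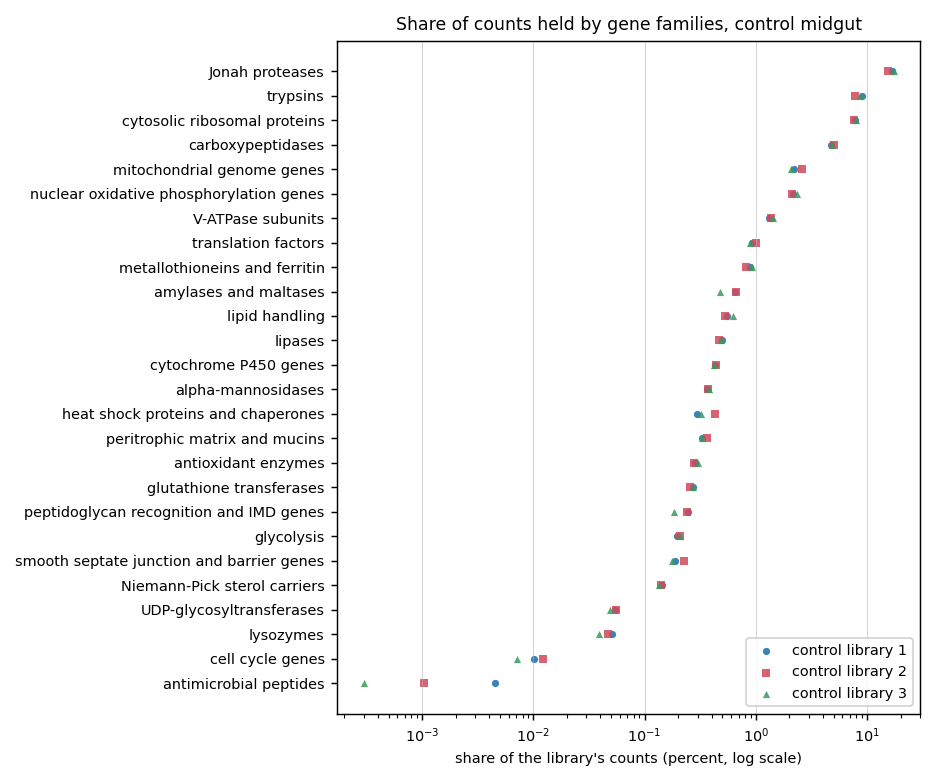
Share of each control library's counts (percent, log scale) held by each gene family, ordered by the mean of libraries 1 (circles), 2 (squares) and 3 (triangles). The libraries lie close together except for chaperones, highest in library 2, cell cycle genes, lowest in library 3, and antimicrobial peptides, highest in library 1.

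Genes of metal storage and of proton pumping stood high. Metallothioneins with ferritin and Mvl held 0.877 ± 0.0558% of the counts (SD, n = 3), with 6 of 9 genes in the top 5%. MtnA had 4477, 3855 and 6234 TPM, Fer2LCH 3154, 3197 and 3038 TPM, Fer1HCH 2513, 2557 and 2287 TPM, and MtnC 912 ± 123 TPM. The 2 ferritin subunits, which store iron, were thus the steadier members, and metallothionein MtnB was high in library 3 alone, at 9.23, 6.04 and 47.5 CPM. V-ATPase subunits, which build the proton pump of lysosomes and of acid-secreting cells, held 1.37 ± 0.0693% of the counts, and 13 of 25 lay in the top 5%. Vha13 had 1428 ± 92.6 TPM, Vha16-1 1180 ± 93.2 TPM, Vha68-2 725 ± 90.2 TPM and Vha14-1 705 ± 39.5 TPM. Paralogues of these subunits were low, Vha68-1 at 2.33 ± 0.573 TPM and Vha36-3 at 0.230 ± 0.256 TPM.

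Niemann-Pick proteins, which move sterols, held 0.140 ± 0.00448% of the counts. Npc2e had 1030 ± 159 TPM, Npc2f 490 ± 80.7 TPM, Npc2a 134 ± 13.9 TPM, Npc2d 101.1 ± 27.2 TPM and Npc1b, the intestinal sterol uptake protein, 78.0 ± 7.59 TPM (SD, n = 3). Genes of lipid handling held 0.569 ± 0.0486% of the counts, and the first places went to small carriers of acyl-CoA and fatty acids. CG8628 had 2607 ± 60.4 TPM, Dbi 2021 ± 179 TPM and the fatty acid binding protein gene fabp 1257 ± 116 TPM, beside CG5804 above. The enzymes of fatty acid synthesis were much lower, with FASN1 at 11.5 ± 3.38 TPM and ACC at 7.46 ± 2.38 TPM, and the triglyceride lipase brummer (bmm) was at 97.9 ± 19.5 TPM.

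Among the lists outside digestion, ribosomal proteins held the most counts. Cytosolic ribosomal proteins held 7.81%, 7.55% and 7.90% of the counts and 11.6 ± 0.0555% of TPM (SD, n = 3), and 81 of 84 genes lay in the top 5%. Their median was 1352 TPM, and RpL41 led with RpL10 (2358 ± 66.6 TPM), RpLP2 (2333 ± 60.2 TPM) and RpL39 (2321 ± 82.3 TPM). In CPM, 83 of the 84 were lowest in library 2, against 41.5% of the 6654 genes with a mean of at least 5 CPM. In TPM 36 of the 84 (42.9%) were lowest there, against 10.1% of genes, so the count depends on the scale. Translation factors held 0.932 ± 0.0571%, with eEF1alpha1 at 1921 ± 191 TPM, eEF2 at 765 ± 104 TPM, eEF1beta at 731 ± 7.32 TPM and eIF4A at 653 ± 16.7 TPM. The paralogue eEF1alpha2 was at 0.0780 ± 0.0219 TPM.

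Respiration genes came next. The 72 nuclear genes of oxidative phosphorylation held 2.21 ± 0.126% of the counts (SD, n = 3), and 52 lay in the top 5%, led by COX5A (1252 ± 15.1 TPM), ATPsynC (1250 ± 89.2 TPM), COX4 (1084 ± 69.3 TPM) and ND-MLRQ (1048 ± 42.7 TPM). The 13 protein genes of the mitochondrial genome held 2.22%, 2.60% and 2.08% of the counts. After mt:CoI and mt:CoIII, mt:Cyt-b had 3256 ± 547 TPM and mt:CoII 3215 ± 196 TPM, while mt:ND6 had 2.50, 8.79 and 4.83 TPM. Nuclear and mitochondrial genes took opposite orders between libraries. In CPM, library 2 was lowest for 70 of the 72 nuclear genes, against 41.5% of all tested genes, and highest for 11 of the 13 mitochondrial ones, against 36.0%. In TPM it was lowest for 39 of the 72, against 10.1%, and highest for all 13, against 73.4%. Glycolysis was modest, at 0.204 ± 0.00770% of the counts, with Gapdh2 at 324 ± 6.87 TPM, Gapdh1 at 202 ± 14.6 TPM, Eno at 185 ± 16.8 TPM and Pglym78 at 152 ± 12.6 TPM.

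Enzymes that handle foreign compounds were each led by a few genes. The 78 cytochrome P450 genes held 0.430 ± 0.0104% of the counts (SD, n = 3) with a median of 6.82 TPM, close to that of all genes, and 3 lay in the top 5%. Cyp6d5 had 820 ± 62.3 TPM, Cyp4d1 240 ± 40.3 TPM, Cyp9f2 208 ± 20.3 TPM and Cyp6a23 145 ± 15.9 TPM. Glutathione transferases, which conjugate glutathione to toxic compounds, held 0.267 ± 0.00941%, with GstD1 at 672 ± 50.9 TPM, GstO3 at 639 ± 86.6 TPM, GstE3 at 387 ± 21.8 TPM and GstE12 at 300.1 ± 0.873 TPM. UDP-glycosyltransferases held 0.0525 ± 0.00356%, and Ugt36Bc led them at 102 ± 0.923 TPM, ahead of Ugt86Dd (47.3 ± 5.19 TPM), Ugt86Da (42.6 ± 8.01 TPM) and Ugt35a (41.5 ± 3.92 TPM). Among antioxidant enzymes, Sod1 had 914 ± 32.3 TPM, the peroxiredoxin Jafrac1 689 ± 32.9 TPM, Cat 271 ± 1.504 TPM and Trxr-1 219 ± 30.3 TPM. Duox, an oxidase that makes reactive oxygen at the gut surface, had 1, 13 and 3 counts.

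Gut immunity was represented by recognition proteins and hardly by effector peptides. PGRP-SC2, an amidase that degrades peptidoglycan, had 2300, 2442 and 1816 TPM, PGRP-SC1a 508, 379 and 263 TPM, PGRP-SC1b 189 ± 56.6 TPM and PGRP-LB 113 ± 11.4 TPM (SD, n = 3). PGRP-SC1a and PGRP-SC1b are near-identical, so their split is uncertain. The receptor PGRP-LC had 15.5 ± 1.88 TPM, the intracellular sensor PGRP-LE 36.1 ± 1.19 TPM and the NF-kappaB factor Rel 22.6 ± 5.30 TPM. The 16 antimicrobial peptide genes together held 0.00455%, 0.00103% and 0.000300% of the counts, and most of this was Drosomycin (Drs) in library 1, with 571, 21 and 0 counts. Drsl3 had 10.6 ± 6.36 TPM, Def 4.60 ± 2.63 TPM and Drsl2 2.62 ± 1.62 TPM. AttA had no count, where 3 counts, the limit that a count of 0 allows, correspond to 0.150 to 0.215 CPM. Intervals and limits of this kind cover counting error only.

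Barrier genes were led by the components of the smooth septate junction, the seal between midgut cells. Ssk had 560, 625 and 562 TPM, Tsp2A 412, 447 and 399 TPM and mesh 152, 204 and 137 TPM. The next, the polarity gene l(2)gl, had 30.1 ± 9.53 TPM (SD, n = 3). Genes of the pleated septate junction of ectodermal epithelia were lower, as Nrx-IV at 2.36 ± 0.465 TPM and sinu at 3.52 ± 0.615 TPM show.

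Enterocyte markers, a check of the tissue label, were high for their defining members. Myo61F, a brush border myosin, had 366, 442 and 336 TPM, and mex1, a midgut-expressed gene, 249, 273 and 224 TPM. Myo31DF had 56.3 ± 5.59 TPM, the vitamin transporter gene Smvt 40.9 ± 9.61 TPM and nubbin (nub), a transcription factor of enterocytes, 24.0 ± 7.82 TPM (SD, n = 3). The cadherins Cad87A and Cad99C were near absent, with 20, 30 and 14 counts for Cad87A and 6, 20 and 8 for Cad99C. None of the 5 members with a mean of at least 5 CPM had a 2-fold range.

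Progenitor markers were far lower than the leading enterocyte markers. The median of the 9 genes was 2.91 TPM, below the 5.14 TPM of all genes. The zinc finger gene peb (hindsight), which is also active in differentiating enterocytes, led with 12.5, 15.02 and 11.3 TPM. The escargot gene (esg), whose regulatory sequence drives the Gal4 of these flies, had 6.59, 9.23 and 5.61 TPM. Sox100B had 3.47, 6.27 and 3.64 TPM, mira, an adaptor of asymmetric division, 2.56, 3.57 and 3.39 TPM, and hdc 1.91, 3.10 and 1.39 TPM. Sox21a, a factor of enteroblast differentiation, had 3.17, 4.29 and 1.28 TPM, with library 3 well under the others. The enteroblast factor klu had 0.815, 1.16 and 0.484 TPM. The Notch ligand gene Dl had 45, 95 and 23 counts and its receptor gene N 49, 58 and 15 counts, which give 0.776 ± 0.459 and 0.272 ± 0.138 TPM.

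Library 3 was lowest for 7 of the 9 progenitor markers and library 2 highest for 7 of them, in CPM. Over the 10777 genes with a count, 36.7% were lowest in library 3 and 41.2% highest in library 2. The summed level of the list was 133, 151 and 117 CPM in libraries 1, 2 and 3. Cell cycle genes followed the same order, with 105, 113 and 74.7 CPM in sum, and 20 of 22 were lowest in library 3. The S-phase genes RnrS (14.6, 20.5 and 9.31 TPM) and PCNA (5.88, 8.69 and 3.03 TPM) showed it, as did CycA with 19, 35 and 2 counts and Cdk1 with 12, 26 and 4. The replication inhibitor geminin (14.97 ± 1.36 TPM, SD, n = 3) and CycD (5.02 ± 0.402 TPM) were steadier. Library 3 was also the least deep and library 2 the deepest, and depth and the trend with transcript length ran with these values. Their part in the result was not tested.

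Enteroendocrine peptides stood well above the median of all genes. The median of the 13 genes was 29.7 TPM, and 11 had at least 1 CPM in every library. NPF, neuropeptide F, had 90.4, 85.4 and 90.6 TPM, Orcokinin 78.3, 79.1 and 101.5 TPM, Nplp2 63.3, 121 and 52.4 TPM, and AstC, allatostatin C, 68.8, 74.5 and 68.4 TPM. Nplp2 covered the whole range of NPF, Orcokinin and AstC, and the values of NPF and Orcokinin overlapped. NPF and Orcokinin each exceeded AstC in every library, without overlap. CCHa2 (35.5 ± 3.69 TPM), the tachykinin gene Tk (32.9 ± 3.11 TPM) and AstA (29.7 ± 1.06 TPM, SD, n = 3) formed a second level. Within 1 SD, Tk overlapped CCHa2 and AstA, while CCHa2 and AstA did not overlap each other. CCHa1 had 14.6 ± 2.37 TPM, Dh31 10.9 ± 1.20 TPM, ITP 6.75 ± 1.36 TPM and Mip 3.83 ± 0.774 TPM. CCAP (6, 7 and 1 counts) and sNPF (5, 6 and 3 counts) were close to the limit of detection. In CPM no peptide gene with a mean of at least 5 CPM reached a 2-fold range, Nplp2 coming nearest at 1.947-fold, and the summed level was 364, 355 and 370 CPM, nearly level across the libraries.

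The enzymes that mature peptides were also present. Phm, which starts peptide amidation, had 41.4, 48.2 and 38.0 TPM, the carboxypeptidase D gene svr 14.9 ± 2.74 TPM, the convertase helper 7B2 13.2 ± 0.551 TPM, Pal2 9.40 ± 1.04 TPM, Pal1 5.87 ± 0.615 TPM and the convertase amon 2.28 ± 0.428 TPM (SD, n = 3). Transcription factors of enteroendocrine fate were low. The factor prospero (pros), which marks enteroendocrine cells, had 41, 77 and 34 counts (0.224 ± 0.0795 TPM). The others had few counts, with 5, 10 and 6 counts for sc, 11, 8 and 8 for tap, 4, 17 and 4 for dimm, and 5, 7 and 4 for Poxn, and ase had none. The peptides' median of 29.7 TPM was thus far above the levels of these factors.

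Transcription factors of gut regions and of gut identity were present at a range of levels. GATAe, a GATA factor of the whole midgut endoderm, had 34.2, 39.8 and 33.7 TPM. The zinc finger gene odd had 31.1, 28.3 and 33.3 TPM, and the homeobox gene exex 21.5, 27.8 and 26.0 TPM. Ptx1 had 21.0, 24.1 and 22.9 TPM, exd 16.03 ± 3.18 TPM, the nuclear receptor Hnf4 16.02 ± 1.37 TPM and caudal (cad), a factor of the posterior gut, 15.4 ± 2.54 TPM (SD, n = 3). GATAe lay above exex, Ptx1, exd, Hnf4 and cad in every library, while exd, Hnf4 and cad did not differ beyond their spread. Below them came drm (12.9 ± 2.52 TPM), dve (9.81 ± 0.939 TPM), fkh (5.87 ± 1.89 TPM) and labial (lab, 5.03 ± 0.816 TPM), the factor of the acid-secreting copper cells of the middle midgut. The last ones above 1 TPM were hth (3.67 ± 1.41 TPM), srp (2.74 ± 0.291 TPM) and tsh (1.67 ± 0.515 TPM).

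Other factors of the list were low. The Iroquois genes ara, caup and mirr had 0.734 ± 0.270, 0.616 ± 0.131 and 0.445 ± 0.0441 TPM (SD, n = 3). Levels of tio (0.229 ± 0.0140 TPM) and ct (0.160 ± 0.0854 TPM) were lower still, and wg had 8, 7 and 3 counts, pnr 2, 7 and 4 and grn 0, 4 and 0. The list as a whole was even between libraries, with 519, 531 and 547 CPM in sum, and none of the 14 factors with a mean of at least 5 CPM had a 2-fold range. In the plot of markers by library, most muscle genes stay together, while several progenitor markers and several low transcription factors, such as ct and grn, spread apart. Among members with a mean of at least 5 CPM, the median coefficient of variation (SD over mean, in CPM) was 20.9% for 6 progenitor markers. It was 11.2% for the 14 factors and 5.58% for 17 muscle genes.

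**Figure D3:**
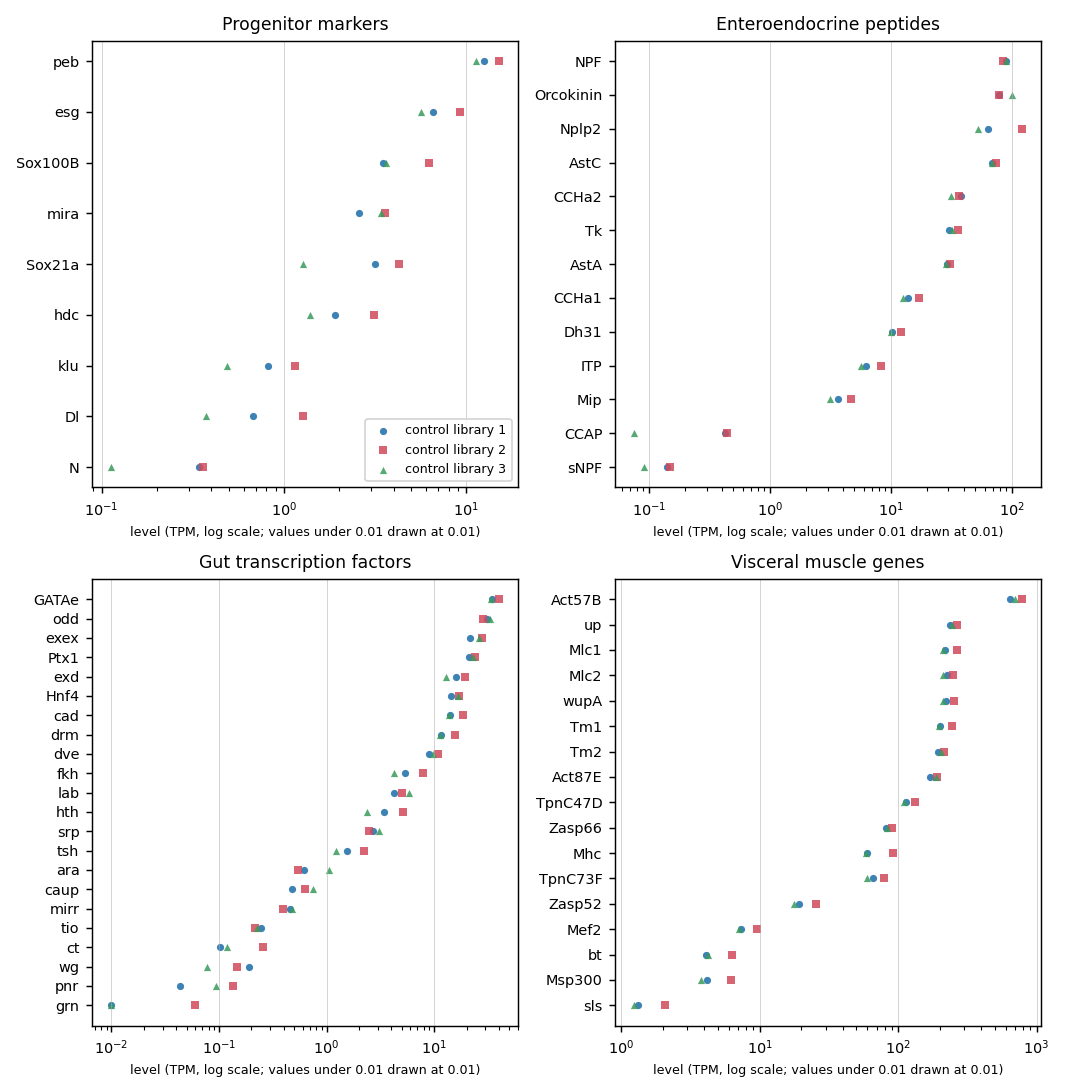
Levels (TPM, log scale) of progenitor markers, enteroendocrine peptides, gut transcription factors and visceral muscle genes in control libraries 1 (circles), 2 (squares) and 3 (triangles). Most genes lie together across libraries, whereas Sox21a, Dl and N stand lowest in library 3 and Nplp2 highest in library 2.

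Genes of the muscle coat were well represented. All 17 of them had at least 1 CPM in each library, 7 lay in the top 5%, and the list held 0.432 ± 0.0414% of the counts (SD, n = 3). Act57B, a muscle actin, had 642, 779 and 702 TPM, the troponin T gene up 250 ± 15.7 TPM, Mlc1 231 ± 29.8 TPM and Mlc2 229 ± 19.0 TPM. Flight muscle genes were near absent, with 1, 3 and 1 counts for Act88F.

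Markers of other organs ranged from near absent to above the median of all genes, 5.14 TPM. Of the Malpighian tubule markers Irk1 had 49.0 ± 2.72 TPM, Alp4 23.4 ± 6.70 TPM, the chloride channel gene CG7589 12.9 ± 1.31 TPM and Uro, urate oxidase, 16.2, 10.4 and 5.90 TPM (SD, n = 3). The list of 8 held 0.0225 ± 0.00115% of the counts, with a median of 9.73 TPM. The hindgut factors byn and otp had 2.45 ± 0.616 and 0.361 ± 0.130 TPM. Tracheal genes summed to 13.8, 45.2 and 20.4 CPM, with Gasp at 6.23 ± 1.90 TPM, serp at 0.985, 5.32 and 2.10 TPM, btl at 0.921 ± 0.219 TPM and trh at 0.242 ± 0.0533 TPM. Fat body markers summed to 58.9, 70.1 and 70.7 CPM, with to at 29.95 ± 18.5 TPM, apolpp at 3.49 ± 2.70 TPM, fit at 1.86 ± 0.330 TPM and Lsp1gamma at 0.976 ± 0.311 TPM. Within this sum, to was lowest in library 2 (30.67, 11.38 and 54.04 CPM) and apolpp highest there (24.96, 54.95 and 13.74 CPM).

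Yolk protein genes, which are active in fat body and ovarian follicle cells of females, had 192.5, 309 and 126.5 TPM for Yp1, 86.0, 130 and 59.1 TPM for Yp2 and 81.3, 106 and 61.6 TPM for Yp3. All 3 were highest in library 2 and lowest in library 3, in CPM as in TPM. Of genes with a mean of at least 5 CPM, 36.0% were highest in library 2 and 37.3% lowest in library 3 in CPM. In TPM 73.4% of them were highest in library 2. The mean of Yp1, 209 TPM, lay in the top 5% of genes. Of the 4 ovary and germline genes measured, Vm26Aa had 0.698 ± 0.862 TPM (SD, n = 3), osk 0.118 ± 0.0870, aub 0.106 ± 0.0549 and nos 0.0386 ± 0.0459 TPM. Hemocyte genes other than crq (23.0 ± 2.65 TPM), a scavenger receptor gene, were low, with Pxn at 0.783 ± 0.197 TPM, PPO2 at 0.530 ± 0.521 TPM, PPO1 at 0.368 ± 0.378 TPM and Hml at 0.0573 ± 0.0197 TPM. Neuronal genes summed to 6.69, 11.98 and 6.08 CPM, led by nSyb (1.19 ± 0.360 TPM), elav (1.08 ± 0.361 TPM), Syt1 (0.331 ± 0.262 TPM) and brp (0.138 ± 0.0700 TPM). All 7 were highest in library 2 in CPM, against 41.2% of genes with a count. In TPM all 7 were highest there too, against 73.4% of genes with a mean of at least 5 CPM. One of 12 testis markers was measured, bol at 1.18 ± 0.654 TPM, and 1 of 9 accessory gland markers, Acp63F at 0, and the rest were not analysed here. The part of other tissues in the values of the midgut genes was not tested.

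The 3 libraries were alike overall but differed by more than counting noise. Log2 levels over 6654 genes with a mean of at least 5 CPM correlated across genes at 0.963 for libraries 1 and 2, 0.987 for libraries 1 and 3 and 0.954 for libraries 2 and 3. Genes are not independent replicates, and the large span of levels raises such values. The chi-square statistic of the counts was 46.1, 25.8 and 80.5 times its degrees of freedom for the same pairs. Per gene its median was 2.32, 1.69 and 4.25. The common biological coefficient of variation was 14.9% in edgeR. It was 19.0% without library 1, 12.5% without library 2 and 12.5% without library 3. The median gene had a highest library 1.20 times its lowest and a coefficient of variation of 9.28%.

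A range of at least 2-fold between the highest and lowest library was reached by 191 of the 6654 genes, or 2.87%. Library 2 was the highest in 110 of them (1.65% of genes), library 3 in 51 (0.766%) and library 1 in 30 (0.451%). Without library 2 the count fell to 71, and without library 3 to 103. There was no gap at the threshold. Just outside it lay CG3348 at 1.995-fold and Sec16 at 1.999-fold, and just inside it CG13912 at 2.001-fold and unc-104 at 2.003-fold. Unevenness was not restricted to low genes. It was found in 4.03% of genes at 5 to 20 CPM, 1.82% at 20 to 100 CPM, 2.32% at 100 to 1000 CPM and 2.17% at 1000 CPM or more.

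Ribosomal proteins, oxidative phosphorylation genes, V-ATPase subunits, Jonah proteases, translation factors, muscle genes and enteroendocrine peptides had no member with such a range, over 82, 66, 20, 16, 11, 17 and 10 tested members. At a share of 2.87% among all genes, a count of 0 in the smaller lists is near the background. Chaperones had 8 of 16 tested members with one, all highest in library 2.

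Library 2 stood apart in genes of cuticle, heat response and basement membrane, lists added after the values were seen. Cuticle proteins form the chitinous exoskeleton and line the foregut, hindgut and tracheae, and 81 of their genes were in the table. In library 2 all 81 had a count and 55 reached 1 CPM, against 24 and 27 with a count and 4 and 4 at 1 CPM in libraries 1 and 3. They summed to 447, 19488 and 475 counts, or 0.00281%, 0.105% and 0.00324% of the libraries. Of the 81, 35 had no count in libraries 1 and 3 and at least 1 CPM in library 2. Of all 10902 genes in the table, 10094, 10601 and 10048 had a count in libraries 1, 2 and 3. How genes were chosen for the table is not stated. If genes of few counts were left out, some cuticle genes may be in it only through library 2, which would raise these numbers. The 19 genes of the Tweedle family alone had 38, 7975 and 41 counts.

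Cuticle genes also filled most of the first 12 places among uneven genes. TwdlM had 0, 124 and 0 CPM in libraries 1, 2 and 3, at least 577-fold higher in library 2 than in both others, against the limit of 3 counts per library. Lcp65Ag2 had 0, 84.8 and 0.0716 CPM and Cpr65Ea 0, 64.8 and 0 CPM. The same pattern, 0 in libraries 1 and 3, was seen for Lcp65Ag3 (60.9 CPM in library 2), TwdlB (58.5 CPM), Lcp65Ag1 (53.9 CPM), TwdlN (53.7 CPM), Cpr65Ax1 (46.2 CPM), TwdlD (45.6 CPM) and TwdlL (38.5 CPM). CG2962, given no function here, had 0, 40.9 and 0 CPM. Cpr67B and Cpr78E, cuticle genes named after their values were seen, were level instead, with Cpr67B at 16.8, 14.4 and 20.5 TPM and Cpr78E at 13.1, 13.7 and 10.9 TPM. The Lcp65Ag genes are close copies and may share reads.

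Heat-inducible chaperone genes were high beside them in library 2. Hsp70Ab (3R, 11958535 to 11960909) had the widest range of all 6654 genes, with 0, 2622 and 0 counts, at least 609-fold higher in library 2 than in both others. Its near-identical copies may share these reads, and Hsp70Aa had 9.94, 121 and 22.7 CPM and Hsp70Bb 76.3, 196 and 29.9 CPM. Small heat shock proteins, which hold unfolded proteins in solution, were likewise highest in library 2. Hsp26 had 6.63, 95.3 and 12.6 CPM and Hsp27 4.48, 52.7 and 6.16 CPM, with Hsp22, Hsp23 and Hsp68 at 31.8, 36.7 and 57.4 CPM in library 2. All 13 genes of this added list were highest in library 2 in CPM, against 41.2% of genes with a count. Their sum was 111, 735 and 91.6 CPM. Chaperones outside this list varied much less. Of 10 such genes, 6 (60.0%) were highest in library 2 too, against the same 41.2%. Hsp83 had 372, 470 and 449 CPM and Hsc70-3 501, 575 and 529 CPM, and Hsc70-4 had 1600, 1708 and 1873 CPM. In the order of abundance Hsc70-4 (820 ± 87.4 TPM), Hsc70-3 (198 ± 32.1 TPM), Hsp83 (169 ± 32.6 TPM) and Hsp60A (80.9 ± 11.9 TPM, SD, n = 3) were ahead of every inducible gene by their mean.

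**Figure D4:**
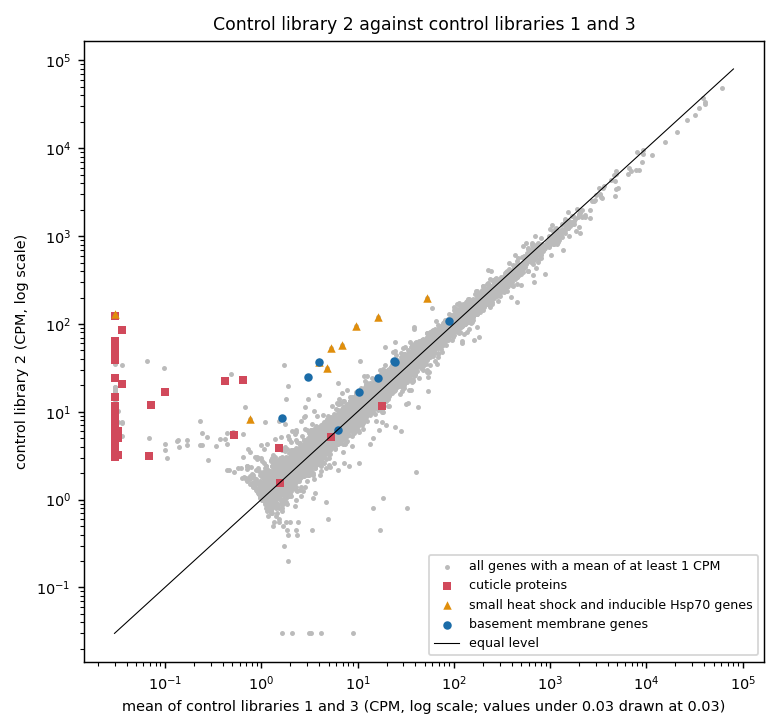
Level of each gene with a mean of at least 1 CPM in control library 2 (vertical) against the mean of libraries 1 and 3 (horizontal), both in CPM on log scales, with values under 0.03 drawn at 0.03. Most genes follow the line of equal levels, while cuticle genes (squares) and heat-inducible chaperone genes (triangles) lie above it, TwdlM at 124 CPM against 0.

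The type IV collagen genes of the basement membrane, Col4a1 (3.31, 37.2 and 4.72 CPM) and vkg (2.34, 24.6 and 3.72 CPM), were also high in library 2. In CPM, 8 of the 9 basement membrane genes were highest there, against 41.2% of genes with a count. In TPM 88.9% of them were highest there, against 73.4% of genes with a mean of at least 5 CPM. Of the 8 tested members, only these 2 collagen genes had a 2-fold range. SPARC, a collagen-binding protein gene, had 24.5, 40.5 and 21.4 TPM, trol 8.33 ± 1.77 TPM and LanB1 3.55 ± 1.22 TPM (SD, n = 3). The chitin deacetylase gene verm, a tracheal marker, had 1.43, 19.8 and 2.36 CPM. In all, 51 genes were at least 2-fold higher in library 2 than in both others, 33 of them at least 10-fold. Of the 51, 25 belonged to the cuticle, heat-inducible and basement membrane lists and 26 to none of them. What set library 2 apart was not tested.

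Fewer genes were high in library 1 alone or in library 3 alone. The genes named next were chosen after their values were seen unless they belong to a list. In library 1, 8 genes were at least 2-fold higher than in both others. Drs had 37.1, 1.05 and 0 CPM, at least 173-fold higher in library 1 than in library 3, and CG18628 had 34.0, 0.449 and 0.501 CPM. Ribosomal RNA pseudogenes, an added list, held 0.517%, 0.227% and 0.315% of the counts, and 7 of 8 tested members had a 2-fold range, all highest in library 1. The highest, 28SrRNA-Psi:CR45851, had 1038, 496 and 645 TPM, followed by 18SrRNA-Psi:CR41602 (395 ± 159 TPM), 18SrRNA-Psi:CR45861 (313 ± 117 TPM) and 28SrRNA-Psi:CR40596 (223 ± 104 TPM, SD, n = 3).

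Library 3 had 19 genes at least 2-fold above both others and 38 at least 2-fold below both. Above were MtnB, CG5892 (5.59, 2.046 and 74.4 CPM), CG11891 (23.0, 25 and 85.8 CPM), the scavenger receptor gene ninaD (62.4, 63.9 and 179 CPM) and GstD5 (6.82, 6.19 and 26.6 CPM). Below were CG14499 (46.5, 49.4 and 1.93 CPM), CG32368 (75.3, 92.3 and 1.93 CPM), lectin-37Da (71.6, 88.5 and 4.80 CPM) and CG42825 (380, 413 and 71.2 CPM). Also below were LManIII (49.2, 36.6 and 14.5 CPM), pirk, a negative regulator of the IMD pathway (30.2, 27.6 and 10.02 CPM), the chitinase gene Cht4 (43.5, 53.1 and 15.3 CPM) and Sox21a (6.95, 8.13 and 2.86 CPM). In library 2, 14 genes were at least 2-fold below both others. Cyp4g1, a P450 of hydrocarbon synthesis, was among them, with 22.8, 0.799 and 42.6 CPM.

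A trend with transcript length separated the libraries across the whole transcriptome. Genes were divided into 4 classes of equal size by transcript length, with median lengths of 869, 1539, 2351 and 4208 bases. In the shortest class the median deviation from a gene's mean was 0.06, -0.12 and 0.07 on the log2 scale in libraries 1, 2 and 3. In the longest class it was -0.02, 0.13 and -0.11. The difference of longest and shortest class was therefore -0.08, 0.25 and -0.18, a span of 0.43 between libraries 2 and 3, and without library 2 it was 0.11. Most cytosolic ribosomal protein genes and nuclear oxidative phosphorylation genes were named above as lowest in library 2 in CPM. Of the 13 mitochondrial genome genes, 11 were highest there instead. The part of transcript length in these orders was not tested. The cause of the trend was not tested.

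**Figure D5:**
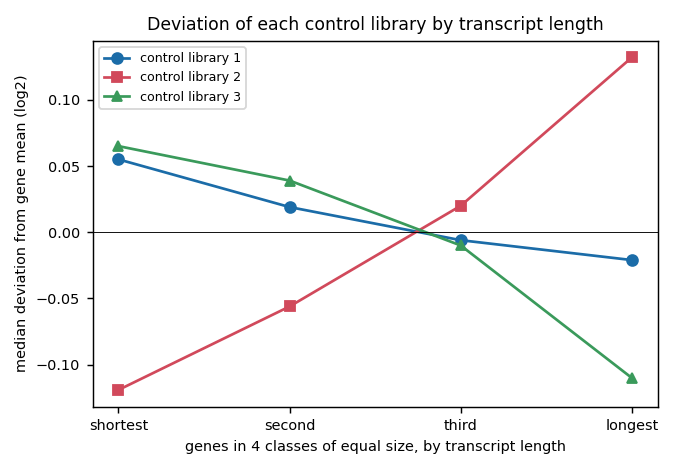
Median log2 deviation from the gene mean in control libraries 1 (circles), 2 (squares) and 3 (triangles), for genes in 4 classes by transcript length. Library 2 rises from -0.12 in the shortest class to 0.13 in the longest, while library 3 falls from 0.07 to -0.11 and library 1 changes less.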

How the data were processed

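RNA of dissected midguts was made into libraries with the Illumina TruSeq RNA kit, per the labels' protocols. The authors deposited whole-number counts per gene, not scaled between libraries. Salmon 1.0.0, DESeq2 and the BDGP6 build appear in the submitters' processing notes; their roles, and the use of strand, are not given in the sources used here. Only the 3 control columns were used, and 4 columns of other groups were not. Of the 10902 symbols, 10882 (99.82%, 838 through an older name) were found in Ensembl 115 (assembly BDGP6.54). Counts were scaled by TMM in edgeR 4.0.16 (R 4.3.3; factors 0.9687, 1.0837 and 0.9526), and the coefficient of variation came from an intercept-only dispersion fit, tested on simulated data. TPM was computed from counts and the median annotated transcript length of each gene. A ratio against a library under 3 counts is a lower bound taken at 3 counts. Ratios between libraries use CPM of genes with a mean of at least 5 CPM.

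Named genes were the 30 with the highest mean TPM, up to 4 leading members of each list, every member of the cell type and region lists, the 12 most uneven genes and the 6 most uneven members of the lists. The members, lists and tests were chosen with earlier results of these data known, and 5 lists were added after the values were seen. Alternatives varied the scaling, the filter, the thresholds, the length measure, the dispersion estimate (DESeq2 1.42.0) and each library in turn.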

Additional observations from a re-analysis of the deposited data

How the results depend on the processing

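The count of expressed genes was 6367 to 9713 over all settings and 7980 to 8082 with 1 library left out. Shares of single lists could depend on 1 library or on the length scale. Cuticle proteins held 0.0372% of counts, but 0.00303% without library 2; antimicrobial peptides 0.00196%, but 0.000667% without library 1; and alpha-mannosidases 0.371% of counts, but 0.128% of TPM. The first 10 genes held 34.3% of TPM, where they held 30.01% of counts (29.5% to 30.9% with 1 library left out). The digestive lists held 35.7% of TPM, or 37.1% with the longest transcript of each gene, where they held 31.2% of counts (30.8% to 32.1% with 1 library left out). The biological coefficient of variation was 27.1% with no filter on low counts and 12.5% to 19.0% with 1 library left out, the highest without library 1; the median gene-wise DESeq2 estimate was 7.05%, which is another quantity. The number of genes with a 2-fold range (191) was 548 with a minimum mean of 1 CPM, 73 with 20 CPM, 702 for a 1.5-fold range and 97 for a 3-fold range, by construction of the thresholds. It was 71 to 191 with 1 library left out, and 161 without cuticle, heat-inducible and ribosomal RNA pseudogenes, an alternative added after seeing the data. The span of the length trend (0.43) was 0.11 to 0.43 on the log2 scale with 1 library left out, lowest without library 2; the cause was not tested. No paired analysis was possible because 1 group was described. With 3 libraries of unstated origin, the SDs are imprecise, and genes of a few counts are limited by depth.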
